A study of Homo sapiens with 11 samples.

Results

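Cadherins are calcium-dependent adhesion receptors that hold neighbouring cells together, and 8 genes of the family were followed here: CDH1, CDH2, CDH3, CDH4, CDH6, CDH11, CDH13 and CDH17. They were chosen by name, with earlier results of these data known. Every probe whose transcript annotation led to one of these symbols was kept, which gave 9 of the 42405 probes on the array (8 of 20249 named genes). CDH2 had 2 probes and each other gene had 1.

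RNA came from 2 lung adenocarcinoma cell lines, A549 and HCC827, of which HCC827 carries mutant EGFR. Each line had been infected with a pMXs-Neo retrovirus, either empty (mock) or carrying TRIM58-WT, the wild-type form of a RING-finger ubiquitin ligase, and all cells of all 4 groups had been selected with G418. There were 3 A549 mock replicates, of which the first was hybridised as arrays 1-1 and 1-2 and averaged, 3 A549 TRIM58-WT replicates, 2 HCC827 mock replicates and 2 HCC827 TRIM58-WT replicates, on 11 one-colour arrays in all. The study isolated clones after selection and described the HCC827 transfectants as crude, so the A549 replicates can differ from each other by clone, and no group received TRIM58 from its own promoter. The labels do not say that the replicates were separate cultures, so the p-values measure the spread between these samples, which may be technical.

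Levels are given as the log2 of a probe's processed signal minus the 75th percentile of that array, a scale on which 0 is the 75th percentile and 1 unit is a doubling. Levels of different probes are not compared with each other. At least 40.1% of probes on each array were well above background, and no spot was saturated. This is the scanner's own call of a spot's signal over its local background, required on more than 0.5 of a probe's spots. The 75th percentile lay between 56.6 and 62.5 signal units on the array labelled A549 mock 3 and on A549 TRIM58-WT 2 and 3, and between 90.5 and 125.4 on the other arrays. A549 TRIM58-WT 2 and 3 differed by a standard deviation of 0.24 log2 units over all probes tested in A549. This was less than the 0.29 between arrays 1-1 and 1-2 of 1 mock control. The 2 values are not alike, since TRIM58-WT 2 and 3 shared a slide and arrays 1-1 and 1-2 did not. The A549 calls are also given with TRIM58-WT replicates 2 and 3 averaged to 1. The TRIM58 probe was well above background on 1 of the 11 arrays, the one labelled A549 mock 3, at a log2 level of -0.71, against -5.64 to -4.63 on the others. Where in the TRIM58 transcript this probe lies is not given in the sources used here, so it does not show whether the introduced gene was expressed. At this probe the array labelled A549 mock 3 stood apart from all other arrays, which does not show whether its label is right. The A549 calls are also given without that array.

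As tissue checks, all 8 epithelial markers (EPCAM, KRT7, KRT8, KRT18, KRT19, MUC1, CLDN4 and CLDN7) were well above background on every HCC827 array. In A549, 7 or 8 of them were so on each mock array and 4 or 5 on each TRIM58-WT array. Their summed signal, in multiples of the 75th percentile, was 1510 to 2300 in A549 mock and 1090 to 1720 in A549 TRIM58-WT. In A549, 4 of the 7 tested were lower, where 7.98% of all genes were called (3.91% higher and 4.07% lower). The fall of KRT19 was at least 723-fold (adjusted p = 0.000151, limma), with EPCAM 29.4-fold lower with 1 of 3 TRIM58-WT arrays above background (adjusted p = 0.0117), CLDN4 at least 8.01-fold lower and KRT8 2.59-fold lower. These 4 passed without the array labelled mock 3, with EPCAM 48.5-fold and CLDN4 at least 12.1-fold lower, and so did MUC1 (3.53-fold lower). With TRIM58-WT replicates 2 and 3 averaged KRT19 passed (adjusted p = 0.00232), and EPCAM, CLDN4 and KRT8 did not (0.0585, 0.0781 and 0.106). Of 8 fibroblast markers only COL1A1 was tested in A549 and it was at least 7.13-fold higher (adjusted p = 0.0105), while the summed signal of the list was 0.377 to 1.31 in mock and 0.631 to 1.97 in TRIM58-WT. LUM, of the same list, went the other way and was not tested. It was above background on 3 of 4 A549 mock arrays and on 0 of 3 TRIM58-WT arrays, at means of -1.39 and -4.64. For COL1A1 the adjusted p was 0.0161 without the array labelled mock 3 and 0.0479 with replicates 2 and 3 averaged. Of 4 leukocyte markers, CD3E was above background on no array, and PTPRC on 2 of 4 A549 mock and 2 of 3 A549 TRIM58-WT arrays. CD14, the only one tested in A549, was 8.32-fold lower with TRIM58-WT, where 1 of 3 arrays was above background, and its change differed between lines by 3.27 log2 units (limma adjusted p = 0.00393). It was 8.05-fold lower without the array labelled mock 3 and 7.79-fold lower with replicates 2 and 3 averaged, passing in both, and the summed signal of the list was 1.86 to 2.23 in A549 mock and 0.426 to 0.84 in A549 TRIM58-WT. The 4 endothelial markers were at background on all arrays. The part of these markers in the cadherin results was not tested. Lung alveolar markers were near background in A549, with at most 2 of 5 above background on an array, and 2 to 4 of 5 were above background in HCC827.

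Classical cadherins carry a cytoplasmic tail that binds p120-catenin and either beta-catenin or plakoglobin, and alpha-catenin couples the complex to actin. Type I members such as E-cadherin (CDH1), N-cadherin (CDH2), P-cadherin (CDH3) and R-cadherin (CDH4) differ from type II members such as CDH6 and CDH11 in their adhesive ectodomain. CDH13 (T-cadherin) has no tail and is held by a lipid anchor, and CDH17 (LI-cadherin) is a gut and liver member with a short tail. Lung epithelium is known for E-cadherin junctions, and mesenchymal cells for N-cadherin and CDH11. The arrays were run to ask which transcripts change when TRIM58 is stably overexpressed.

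The lines differed in their cadherins before any TRIM58 was introduced. In the mock arrays HCC827 had more CDH1 and CDH3, and A549 had more CDH2 and CDH11. With TRIM58-WT, A549 had more CDH2 at both probes, though both calls ended in several of the alternatives given below. The lower CDH1 level did not pass the threshold after correction over all probes, but passed in some of those alternatives. In HCC827 none of the 4 tested cadherin probes passed, where 0.885% of all tested probes did. CDH6, CDH13 and CDH17 were never well above background on all arrays of a group. The plot of the 9 probes by array shows these levels.

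**Figure D1:**
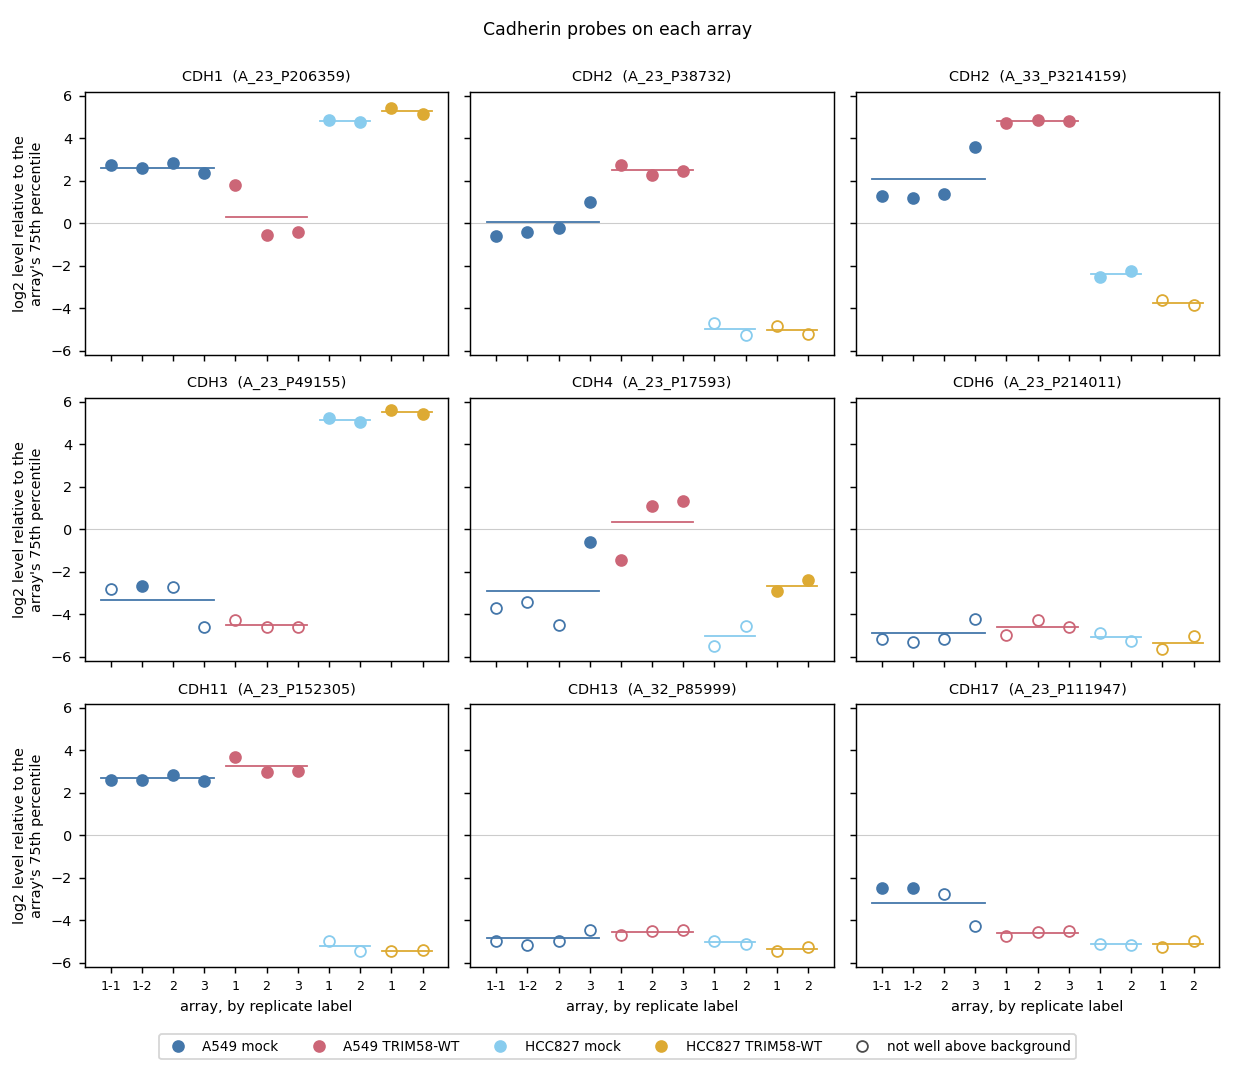
Log2 level of each cadherin probe relative to the 75th percentile of its array, on the vertical axis, for the 11 arrays named on the horizontal axis. Filled points were well above background and open points were not, and bars mark group means over replicates. CDH1 lies lower in A549 TRIM58-WT than in A549 mock, both CDH2 probes lie higher, and CDH3 is above background in HCC827 on all 4 arrays.

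E-cadherin, the adhesion receptor that defines epithelial sheets, was read by the CDH1 probe A_23_P206359, which is spotted 10 times per array. In A549 mock its log2 level was 2.72 on array 1-1, 2.61 on array 1-2, 2.82 on array 2 and 2.35 on the array labelled mock 3. In A549 TRIM58-WT it was 1.80, -0.54 and -0.40 in replicates 1, 2 and 3. Every TRIM58-WT value was below every mock value, but replicate 1 lay much nearer to mock than the other TRIM58-WT replicates did. The HCC827 mock arrays gave 4.86 and 4.75, and the HCC827 TRIM58-WT arrays 5.43 and 5.15. CDH1 was well above background on all 11 arrays.

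The order of CDH1 was HCC827 TRIM58-WT (5.29 ± 0.20, SD, n = 2), HCC827 mock (4.80 ± 0.08, n = 2), A549 mock (2.61 ± 0.24, n = 3) and A549 TRIM58-WT (0.29 ± 1.31, n = 3). The A549 difference was -2.33 log2 units (SE 0.62, 95% interval -3.83 to -0.83) with an adjusted p of 0.0716 in limma, so it was not called. The groups did not overlap, which held for 31.0% of all probes tested in A549. In bulk RNA, fewer cells with a transcript and less of it per cell cannot be told apart. Without TRIM58-WT replicate 1 the difference was -3.08 (limma adjusted p = 0.00237) and passed. It was -2.46 without the array labelled mock 3 (adjusted p = 0.0952), and with TRIM58-WT replicates 2 and 3 averaged -1.95 (adjusted p = 0.214). Within slide 1, which held TRIM58-WT replicate 1 and mock arrays 1-1 and 2, the difference was -0.97. On slide 2, with the other TRIM58-WT arrays, mock 1-2 and the array labelled mock 3, it was -2.95. With slide as a block, and arrays 1-1 and 1-2 as separate replicates, the estimate was -2.16 (limma adjusted p = 0.0111) and passed. That fit counts 1 mock sample as 2 replicates. The difference also passed after a median shift (-2.70, limma adjusted p = 0.00232) and with all 4 groups in one fit (adjusted p = 0.0222). It passed too with arrays 1-1 and 1-2 as separate replicates and no block (limma adjusted p = 0.0250). In HCC827 the difference was 0.48 (SE 0.16, interval 0.06 to 0.91, limma adjusted p = 0.213).

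N-cadherin, found in nerve, muscle and mesenchymal cells, was read by both CDH2 probes. At both, the array labelled mock 3 was the highest of the A549 mock arrays. Probe A_23_P38732, printed once per array, stood at -0.63, -0.42, -0.25 and 0.99 on A549 mock arrays 1-1, 1-2, 2 and the array labelled mock 3. It stood at 2.73, 2.28 and 2.45 in A549 TRIM58-WT replicates 1 to 3. On the HCC827 arrays it was not well above background, at -5.28 to -4.70. Probe A_33_P3214159 stood at 1.27, 1.18, 1.37 and 3.60 on the A549 mock arrays in the same order, and at 4.71, 4.84 and 4.79 in TRIM58-WT. The array labelled mock 3 lay nearer to the TRIM58-WT arrays than to the other mock arrays at this probe. In HCC827 mock it was well above background at -2.53 and -2.26, and in HCC827 TRIM58-WT it was not, at -3.62 and -3.87.

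In A549, CDH2 rose with TRIM58-WT by 2.41 log2 units (5.33-fold, SE 0.41, limma adjusted p = 0.0196) at A_23_P38732 and by 2.72 (6.57-fold, SE 0.62, limma adjusted p = 0.0472) at A_33_P3214159. These were the 2 called of 5 cadherin probes tested in A549, where 6.92% of all tested probes were called (3.49% higher and 3.43% lower). Groups did not overlap at either probe, which held for 31.0% of all probes tested in A549. Without the array labelled mock 3 the rises were 2.87 (adjusted p = 0.00167) and 3.48 (adjusted p = 0.000396). The calls at both probes ended without mock replicate 1, mock replicate 2, TRIM58-WT replicate 2 or TRIM58-WT replicate 3, where limma adjusted p-values were 0.0710 to 0.0862 at A_23_P38732 and 0.150 to 0.172 at A_33_P3214159. Without TRIM58-WT replicate 1 the adjusted p-values were 0.0417 and 0.0766. With TRIM58-WT replicates 2 and 3 averaged the rises were 2.48 (adjusted p = 0.0786) and 2.70 (adjusted p = 0.154). Within slide 1 the differences were 3.17 and 3.39, and within slide 2 they were 2.08 and 2.42. With slide as a block, and arrays 1-1 and 1-2 as separate replicates, they were 2.52 and 2.81 (limma adjusted p = 0.00616 and 0.0142).

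In HCC827 the A_33_P3214159 level was lower with TRIM58-WT by 1.35 log2 units in measured means, at least 1.96-fold lower since the TRIM58-WT arrays were not above background. The adjusted p was 0.0663 in limma, and 0.885% of probes were called in HCC827. After normexp background correction the difference was -0.18. The other CDH2 probe was not tested. The change at A_33_P3214159 differed between the lines by -4.07 log2 units (SE 0.87, HCC827 change minus A549 change, limma adjusted p = 0.0431), the only one of 6 cadherin probes tested that passed, where 3.85% of all probes did (1.82% with a lower value in HCC827). Without the array labelled mock 3 this was -4.83 (adjusted p = 5.57e-05). It did not pass with any other single replicate left out, at adjusted p-values of 0.0507 to 0.146, nor with TRIM58-WT replicates 2 and 3 averaged (adjusted p = 0.0978). At A_23_P38732 the difference in measured values was -2.44 (limma adjusted p = 0.0665), with HCC827 at background in both groups, and without the array labelled mock 3 it was -2.90 (adjusted p = 0.00303) and passed.

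CDH2 lies on chromosome 18, and the RefSeq promoter table used here holds 2 starts for it. The 250 bases before each are shown in lower case on the gene's strand because CDH2 was the cadherin that passed in A549; capitals mark CAGGTG or its reverse complement CACCTG, the E-box bound by SNAI and ZEB repressors, and TATAAA or its reverse complement TTTATA. The arrays do not tell which start was used.
CDH2 outer start, GRCh38.p14 chr18:28177131-28177380, minus strand: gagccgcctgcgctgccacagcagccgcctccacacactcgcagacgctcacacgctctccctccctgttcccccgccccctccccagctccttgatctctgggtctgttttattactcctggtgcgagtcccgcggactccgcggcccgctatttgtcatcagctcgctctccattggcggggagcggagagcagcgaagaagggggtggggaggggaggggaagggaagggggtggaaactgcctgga
CDH2 inner start, GRCh38.p14 chr18:28036642-28036891, minus strand: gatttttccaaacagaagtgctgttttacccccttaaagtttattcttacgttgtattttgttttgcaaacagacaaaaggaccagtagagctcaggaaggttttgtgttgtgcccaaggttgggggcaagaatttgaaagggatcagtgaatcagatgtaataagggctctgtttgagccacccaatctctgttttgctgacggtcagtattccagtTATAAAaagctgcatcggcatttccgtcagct
The outer window is rich in CpG, with 17 against a median of 11 in 35116 windows of the same length, and holds neither motif. The inner window has 4 CpG and a TATAAA beginning 32 bases before the start. TATAAA or TTTATA occurs in 10.72% of all windows, and CAGGTG or CACCTG in 17.49%.

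P-cadherin, common in basal epithelium, was read by the CDH3 probe A_23_P49155. The HCC827 mock arrays stood at 5.21 and 5.04 and the TRIM58-WT arrays of that line at 5.61 and 5.42, each well above background. In A549 mock they were -2.80, -2.67, -2.69 and -4.59 on arrays 1-1, 1-2, 2 and the array labelled mock 3, with only 1-2 above background. In A549 TRIM58-WT they were -4.28, -4.61 and -4.61, none above background. So CDH3 was not tested for TRIM58 in A549, and at or near background no change can be read there. In HCC827 the difference was 0.39 (SE 0.15, interval -0.01 to 0.79, limma adjusted p = 0.255). No difference of the change between lines is given for CDH3, since it would rest on A549 levels at or near background.

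R-cadherin, known from retina and brain, was read by the CDH4 probe A_23_P17593. On A549 mock arrays its level was -3.69, -3.40 and -4.49 on 1-1, 1-2 and 2, not above background, and -0.62 on the array labelled mock 3, above background. In A549 TRIM58-WT it was -1.44, 1.11 and 1.33, all above background. The groups overlapped, since the array labelled mock 3 was higher than TRIM58-WT replicate 1. HCC827 gave -5.51 and -4.55 in mock, not above background, and -2.90 and -2.39 in TRIM58-WT, above it. The mean was higher with TRIM58-WT in both lines, but neither difference passed.

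The CDH4 difference in measured means was 3.22 in A549, with 1 of 4 mock arrays above background (SE 1.16, interval 0.41 to 6.02, limma adjusted p = 0.148) and at least 1.50-fold in HCC827 (adjusted p = 0.0829), where measured means differed by 2.39. Without the array labelled mock 3 no A549 mock array was above background, and CDH4 was at least 10.8-fold higher with TRIM58-WT (adjusted p = 0.0375) and passed. In both lines CDH4 was tested only through TRIM58-WT, the group where it was high, so a pass was likelier from the start. With slide as a block, and arrays 1-1 and 1-2 as separate replicates, the measured difference was 3.00 (limma adjusted p = 0.0180) and passed. With TRIM58-WT replicates 2 and 3 averaged it was 2.77 (limma adjusted p = 0.370). Within slide 1 CDH4 was at least 3.14-fold higher, and within slide 2, with 1 of 2 mock arrays above background, the measured difference was 3.23. After normexp background correction the differences shrank to 1.23 in A549 and 0.42 in HCC827. In measured values, with most mock arrays of both lines at background, the difference between lines was -0.83 (SE 1.66, interval -4.62 to 2.96, adjusted p = 0.835).

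CDH4 lies on chromosome 20. RefSeq lists 2 starts in the promoter table, and the one whose 250 upstream bases hold an E-box is shown because CDH4, like CDH2, had its highest A549 levels in TRIM58-WT; capitals mark the same motifs.
CDH4, GRCh38.p14 chr20:61499171-61499420, plus strand: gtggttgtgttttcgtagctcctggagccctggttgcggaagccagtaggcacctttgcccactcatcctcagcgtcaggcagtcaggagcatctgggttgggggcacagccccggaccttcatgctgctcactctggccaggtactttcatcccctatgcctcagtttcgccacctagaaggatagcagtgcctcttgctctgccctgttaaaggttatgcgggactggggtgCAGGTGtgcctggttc
The CAGGTG begins 16 bases before the start, and this window has 6 CpG. The other CDH4 window has 12 CpG and neither motif. The printed window was picked for its motif, so the E-box is not a result about CDH4. CAGGTG or CACCTG occurs in 17.49% of all windows. The arrays do not tell which CDH4 start was used, and whether either is the gene's main start was not checked.

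**Figure D2:**
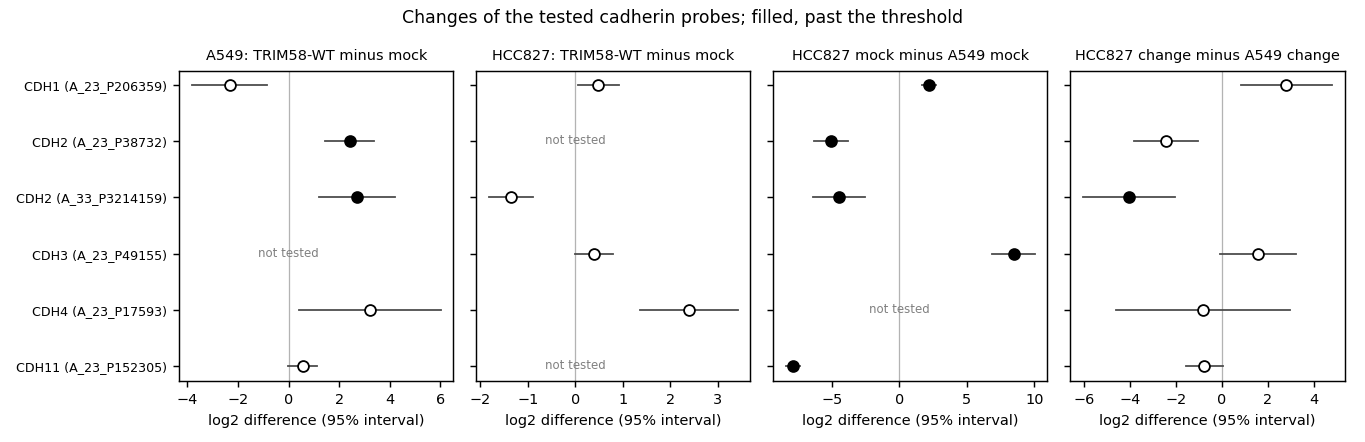
Log2 differences of the tested cadherin probes (points) with 95% intervals (lines), in the 4 comparisons; filled points passed the threshold and each panel has its own horizontal scale. Both CDH2 probes are filled in A549, none is filled in HCC827, and all 5 tested probes are filled between the mock lines. Fitted values are drawn also where a group was at background, as for CDH3 in A549 and CDH11 in HCC827.

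The type II cadherin CDH11, a receptor of mesenchyme and bone, was read by A_23_P152305. Its levels were 2.62, 2.62, 2.85 and 2.58 on the A549 mock arrays and 3.70, 2.99 and 3.04 in TRIM58-WT, all above background. TRIM58-WT lay above mock on every array, where 31.0% of all probes tested in A549 had groups that did not overlap. CDH11 was higher by 0.56 log2 units (SE 0.24, interval -0.01 to 1.13, limma adjusted p = 0.203). The difference was 0.51 without the array labelled mock 3 (adjusted p = 0.268), and with TRIM58-WT replicates 2 and 3 averaged 0.67 (adjusted p = 0.290). On the 4 HCC827 arrays CDH11 was at -5.42 to -4.98, not above background, and it was not tested there. CDH6, the other type II member, known from kidney, was at -5.64 to -4.20 and was above background on none of the 11 arrays. CDH13 was likewise above background on none, at -5.43 to -4.45. CDH17 was above background only on A549 mock arrays 1-1 and 1-2, at -2.50 and -2.46, with the other mock arrays at -2.75 and -4.26 and A549 TRIM58-WT at -4.73 to -4.50. No fold is given for these 3 genes.

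Between the mock lines, 5 of the 5 cadherin probes tested passed, where 30.3% of all probes did (16.2% higher and 14.1% lower in HCC827). CDH11, CDH3 and CDH2 at A_23_P38732 entered the test only through the line where they were high. CDH11 and that CDH2 probe were above background on 0 of 2 HCC827 mock arrays. A call was then likely from the start, so the count of 5 is not read against that share. CDH11 was at least 60.4-fold lower in HCC827 (limma adjusted p = 4.41e-05). CDH2 was at least 9.87-fold lower at A_23_P38732 (adjusted p = 0.00135) and 22.0-fold lower at A_33_P3214159 (adjusted p = 0.00804). CDH3 was higher in HCC827 by 8.46 log2 units (SE 0.63, adjusted p = 0.000536), with 1 of 4 A549 mock arrays above background, and CDH1 was 4.56-fold higher (SE 0.20 log2 units, adjusted p = 0.00105). These comparisons share their mock arrays with those of TRIM58-WT, so no agreement between them is drawn.

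All HCC827 arrays lay on slide 1, and within that slide the difference between lines was 2.03 for CDH1 and -3.71 for CDH2 at A_33_P3214159. There CDH3 was at least 234-fold higher in HCC827, CDH11 at least 62.6-fold lower and CDH2 at least 6.94-fold lower at A_23_P38732. Without the array labelled mock 3 all 5 probes passed, with CDH1 at 2.06, CDH2 at -3.69 at A_33_P3214159 and at least 7.19-fold lower at A_23_P38732, CDH11 at least 62.6-fold lower, and CDH3 at 7.84 in measured means with 1 of 3 A549 mock arrays above background. After normexp background correction the measured differences were -3.64 for CDH11, -1.36 and -2.62 at the CDH2 probes and 5.60 for CDH3, still passing. CDH2 at A_33_P3214159 did not pass without HCC827 mock replicate 1 or 2 (limma adjusted p = 0.0632 and 0.0526).

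**Figure D3:**
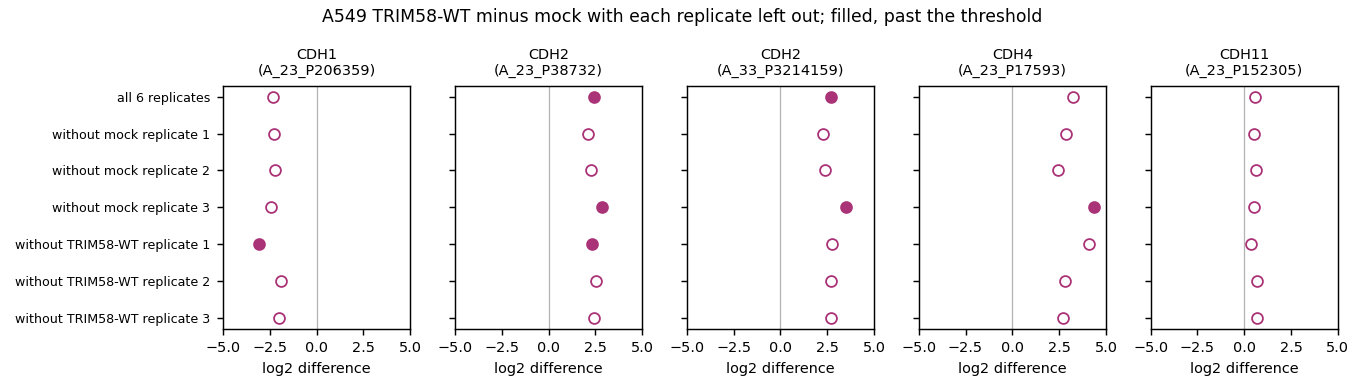
Log2 difference of A549 TRIM58-WT minus mock for the 5 tested cadherin probes, with all replicates and with each left out in turn; filled points passed the threshold of an adjusted p under 0.05 and a 2-fold change. CDH1 is filled only without TRIM58-WT replicate 1 and CDH4 only without mock replicate 3.

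Among 15 other cadherins on the array, 3 were tested in A549 and 1 was called, where 7.98% of genes were called (3.91% higher and 4.07% lower). It was CDH23, a hair-cell cadherin, at least 2.20-fold higher with TRIM58-WT (limma adjusted p = 0.0150), from a mean of -3.80 to -1.76 at A_23_P307968. No A549 mock array was above background there, so this probe was tested only through the group where it was high. It was at least 2.55-fold higher without the array labelled mock 3 (adjusted p = 0.00269), and with TRIM58-WT replicates 2 and 3 averaged it did not pass (adjusted p = 0.0737). Another CDH23 probe, A_23_P217946, was above background on 0 of 4 A549 mock and 2 of 3 TRIM58-WT arrays and was not tested. CDH16, a kidney cadherin, at -0.54 (adjusted p = 0.437), and CDH22, at 0.33 (adjusted p = 0.707), did not pass in A549. CDH16 was at least 2.65-fold lower in HCC827 mock than in A549 mock (adjusted p = 0.000179). In HCC827, 2 were tested and none was called, where 41 of 12195 genes were called higher and 93 lower.

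Of 20 catenins and adherens junction partners, 15 were tested in A549 and 1 was called, plakoglobin (JUP), against 7.98% of all genes, with a median difference of 0.12 against 0.03 over all genes tested. JUP, a desmosomal and junctional linker that replaces beta-catenin on cadherin tails, stood at 3.87 to 4.88 on A549 mock arrays and at -0.85 to 1.09 in TRIM58-WT. It fell by 4.64 log2 units (SE 0.56, limma adjusted p = 0.00746), and its change differed from that in HCC827 by 4.80 (adjusted p = 0.0159), a difference that 4.62% of genes showed. JUP fell by 4.96 without the array labelled mock 3 (adjusted p = 0.00812) and fell by 4.33 with TRIM58-WT replicates 2 and 3 averaged (adjusted p = 0.0374). The core partners did not pass, with CTNNB1 (beta-catenin) at 0.12, CTNND1 (p120-catenin) at -0.47 and CTNNA1 (alpha-catenin) at -1.33 (adjusted p = 0.0672), though CTNNA1 passed without the array labelled mock 3 (-1.68, adjusted p = 0.0135). In HCC827, 16 were tested and none was called, with JUP at 0.16, where 41 of 12195 genes were called higher and 93 lower. Between the mock lines 4 were higher in HCC827 and 1 was lower of 15 tested, where 31.9% of genes were called (16.4% higher and 15.5% lower). PLEKHA7, which ties junctions to microtubules, was 4.06-fold higher, AFDN 2.97-fold, CTNNAL1 2.21-fold and AJUBA 2.21-fold higher, and NECTIN2, a nectin adhesion receptor, was 2.82-fold lower.

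The list of 22 transcription regulators known to act on cadherin genes had 21 on the array. In A549, 12 were tested, 1 was higher and 3 were lower, where 3.91% and 4.07% of all genes were. TCF4, a repressor of CDH1, rose 3.03-fold (limma adjusted p = 0.0181). KLF4, an activator of CDH1, fell 5.49-fold with 1 of 3 TRIM58-WT arrays above background (adjusted p = 0.0382) and ELF3, an epithelial factor, 2.95-fold (adjusted p = 0.0143). The repressors TWIST1 (1.75, adjusted p = 0.0512), ZEB1 (1.15, adjusted p = 0.140) and SNAI1 (0.69, adjusted p = 0.363) did not pass in A549. On the same list TCF3 (0.63, limma adjusted p = 0.137) and TWIST2 (-0.04, limma adjusted p = 0.955) did not pass either. SNAI2 and KLF8 were above background on no A549 array, ZEB2 was so on 1 of 3 TRIM58-WT arrays, and these were not tested. Without the array labelled mock 3, TCF4, KLF4 and ELF3 passed at adjusted p-values of 0.00239, 0.00636 and 0.00804, and so did TWIST1 (2.14, adjusted p = 0.0162) and ZEB1 (1.61, adjusted p = 0.00948). With TRIM58-WT replicates 2 and 3 averaged TCF4, KLF4 and ELF3 did not pass, at 0.0813, 0.142 and 0.0689.

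In HCC827, 2 of 16 regulators tested were lower, where 0.763% of genes were. TWIST1 was at least 2.17-fold lower with TRIM58-WT (limma adjusted p = 0.0288), and GRHL1, a grainyhead factor of epithelium, 2.39-fold lower (adjusted p = 0.0489). In measured values the change differed between lines for KLF4 (3.38) and TWIST1 (-4.47), with limma adjusted p-values of 0.0429 and 0.00648. Such a difference was called for 4.62% of all genes. TWIST1 was above background on 0 of 2 HCC827 TRIM58-WT arrays and KLF4 on 1 of 3 A549 TRIM58-WT arrays. With TRIM58-WT replicates 2 and 3 averaged TWIST1 passed (0.0224) and KLF4 did not (0.102). Between the mock lines 5 were higher and 4 lower in HCC827, of 17 tested, where 16.4% and 15.5% of all genes were. OVOL1 was at least 16.1-fold, GRHL2 at least 8.17-fold, GRHL3 at least 4.30-fold and FOXA1 3.29-fold higher. GRHL1 was also higher (limma adjusted p = 0.00154), with 1 of 4 A549 mock arrays above background, so no fold is given. TCF4 was at least 9.94-fold, FOXA2 15.1-fold and ZEB1 3.20-fold lower.

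Of 15 genes that process, shed or internalise cadherins, 13 were tested in A549 and 1 was called, a share near the 7.98% of all genes. PCSK5, a proprotein convertase, was 3.85-fold lower with 1 of 3 TRIM58-WT arrays above background (limma adjusted p = 0.0279). Its adjusted p was 0.0498 without the array labelled mock 3 and 0.0730 with TRIM58-WT replicates 2 and 3 averaged. ADAM10, the sheddase of E- and N-cadherin, was at -0.62 (adjusted p = 0.0879) and did not pass. In HCC827 12 were tested and none was called, where 41 of 12195 genes were called higher and 93 lower. Between the mock lines PCSK5 was at least 4.79-fold lower and PSEN2, a gamma-secretase subunit, 4.18-fold lower in HCC827. The plot of these lists shows the drawn genes in both lines.

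**Figure D4:**
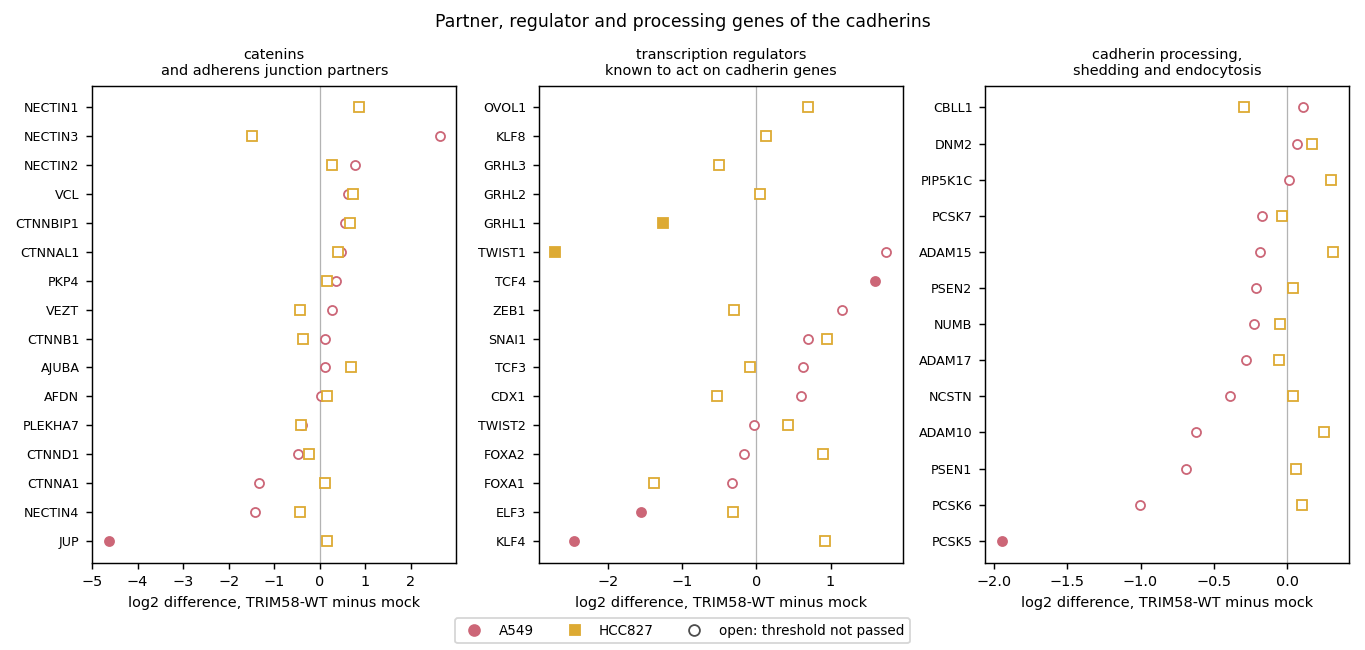
Log2 difference of TRIM58-WT minus mock for genes of the 3 lists in A549 (circles) and HCC827 (squares), with filled points past the threshold; 1 tested regulator is not drawn. In A549 JUP, TCF4, ELF3, KLF4 and PCSK5 are filled, and in HCC827 TWIST1 and GRHL1.

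CDH1 and CDH3 lie side by side on chromosome 16, and their nearest tested neighbours did not pass in either line with TRIM58-WT. In A549, ZFP90, a zinc-finger gene before CDH1, was at 0.70 (limma adjusted p = 0.0689), PRMT7 at 0.20, TANGO6 at 0.56 and HAS3 at 0.21, while CDH1 was at -2.33. Near CDH2 on chromosome 18, A549 gave TAF4B at -0.18, KCTD1 at 0.95, DSG2 at -0.63 and RNF138 at 0.26, none passing. DSC2, a desmosomal cadherin next to CDH2, was higher in HCC827 mock than in A549 mock by 3.80 (adjusted p = 0.00829), and by 3.14 without the array labelled mock 3, against CDH2's lower level there. Near CDH4 on chromosome 20, PPP1R3D (0.65), FAM217B (0.01), TAF4 (0.32) and LSM14B (0.46) did not pass in A549. Near CDH11, CMTM1, a chemokine-like factor gene, rose by 1.45 (adjusted p = 0.00412) in A549, and SLC38A7, GOT2 and CKLF did not pass. Near CDH6 on chromosome 5, BASP1 and C5orf22 were lower in A549 by 1.20 and 1.03 log2 units (adjusted p = 0.0153 and 0.0308). CMTM1, BASP1 and C5orf22 passed without the array labelled mock 3 (adjusted p = 0.00417, 0.00698 and 0.00962), and with TRIM58-WT replicates 2 and 3 averaged CMTM1 did (0.0328) and BASP1 and C5orf22 did not (0.0812 and 0.128). Neighbours of CDH13 and CDH17 did not pass with TRIM58-WT in either line.

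The genes whose levels ran most like each measured cadherin were found by Pearson r of log2 level over the 10 replicates, which fall into 2 lines and share slides and their scaling, with 12836 genes searched. For CDH1 these were NANOS1, ERRFI1 and PARAIL (r = 0.992, 0.989 and 0.989), and over the 6 A549 replicates r was 0.989, 0.972 and 0.972. For CDH2, read at A_33_P3214159, they were C19orf47, IFT81 and TBCB (r = 0.996, 0.994 and 0.994). For CDH3 they included LY6D and CLDN7 (r = 0.998 for each), and CLDN7 encodes a tight junction protein. For CDH4 they were VEZF1, PPP1R3G and PCOLCE2 (r = 0.979, 0.974 and 0.971). For CDH11 they were IPW, ABHD15 and SNRPN (r = 0.999, 0.998 and 0.998), though SNRPN had r = 0.716 within A549. Differences between the lines weigh heavily in these values.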

How the data were processed

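Total RNA was hybridised to 11 SuperPrint G3 Human GE 8×60k arrays with a single dye. The authors deposited spot intensity files, background-subtracted and detrended by Feature Extraction 11.5.1.1 per the file headers (10.7 in the submitters' notes), with no scaling between arrays, and a log2 table that the authors made in GeneSpring. Of that log2 table, 95.5% of values lay within 0.01 of the scanner values after a shift per array and a baseline per probe, its scale and centring being otherwise unstated. Its medians were 0.00, -0.04, 0.08 and 0.45 in A549 mock 1-1, 1-2, 2 and 3, 0.30, 0.40 and 0.46 in A549 TRIM58-WT, -0.07 and 0.00 in HCC827 mock and -0.13 and -0.02 in HCC827 TRIM58-WT.

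Outlier spots and controls were left out, spots of a probe averaged, and each array's 75th percentile subtracted on the log2 scale. A probe was tested if all arrays of 1 or more groups in the comparison had it well above background, with limma 3.58.1 in R 4.3.3. It was called at a Benjamini-Hochberg adjusted p under 0.05 over all probes tested and a 2-fold change, or the adjusted p alone for the difference between lines. The test was checked on simulated data. "At least" folds set the brighter group against the lowest signal well above background on each array. Of 42405 probes, 28302 had a RefSeq accession and 27241 were named through the RefSeq table; for a gene with several probes the brightest was used in list counts, and both CDH2 probes are given. Motif windows came from the RefSeq promoter table used here (GRCh38.p14), which held windows for 2 of the 8 cadherins. The number of arrays limits the precision.

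All 8 cadherins are named, from other lists the genes called (at most 5 per direction), the 3 most alike genes, 2 tested neighbours on each side, and TRIM58. Genes outside this rule (core catenins, TWIST1, TWIST2, ZEB1, ZEB2, SNAI1, SNAI2, TCF3, KLF8, ADAM10, CDH16, CDH22, MUC1, LUM and the untested leukocyte markers) were named after their values were seen. Members and lists were chosen with earlier results of these data known. Alternatives comprised other normalisations, background correction, filters, slide and replicate blocks, the methods' t-test and left-out replicates. Results for some genes that the naming rule picks are not reported here, though the counts of each list include them.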

Additional observations from a re-analysis of the deposited data

Results flagged for a closer look

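The CDH2 probe A_33_P3214159 changed differently in the lines. The HCC827 change minus the A549 change was -4.07 log2 units (limma adjusted p = 0.0431), from a rise of 2.72 in A549 and a lower level, by 1.35 in measured means, in HCC827, where the TRIM58-WT arrays were not above background. The other CDH2 probe gave -2.44 (limma adjusted p = 0.0665), with HCC827 at background. Groups had at most 3 replicates, too few to look for a single sample standing apart.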

How the results depend on the processing

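Over the alternatives, 392 values of the tested cadherin probes were computed: 341 stayed on their side of the threshold, 34 no longer passed, 17 newly passed and none changed sign. The count of cadherin probes called in A549 (2) was 0 without the filter on dim probes, 1 with only probes above background on every array, 4 with slide as a block, 0 with the methods' t-test after Benjamini-Hochberg and 1 unadjusted, 0 with TRIM58-WT replicates 2 and 3 averaged (chosen after seeing the data) and 0 to 3 with a replicate left out. In HCC827 (0) it was 2 after a median shift, 1 with the methods' t-test unadjusted and 0 after Benjamini-Hochberg, and 0 with any replicate left out. Between the mock lines (5) it was 2 with only probes above background on every array, since 3 could then not be tested, and 4 to 5 with a replicate left out. For the difference between lines (1) it was 0 after normexp background correction, without the filter, with only probes above background on every array and with replicates 2 and 3 averaged, 2 after a median shift and with arrays 1-1 and 1-2 as separate replicates, 3 with slide as a block, and 0 to 3 with a replicate left out; the 3, without A549 mock replicate 3, include CDH3, which was at or near background in A549. The median shift moved the median A549 difference of all probes by -0.37 log2 units, and the share of calls that were higher from 50.5% to 25.6% in A549 and from 32.9% to 46.2% in HCC827. The cause was not tested for any of these. Over all probes, calls in A549 (1171) were 507 after normexp, 609 without the filter, 673 with only probes above background on every array, 1802 with slide as a block, 24 with the methods' t-test after Benjamini-Hochberg, 333 with replicates 2 and 3 averaged and 297 to 2192 with a replicate left out. In HCC827 (173) they were 650 after the median shift, 102 after normexp, 367 with the stricter filter, 343 with the unadjusted t-test, 0 without the filter, with the block and after Benjamini-Hochberg, and 0 to 461 with a replicate left out. Between the mock lines (5905) they were 3045, 3434 and 3003 after normexp, the stricter filter and the adjusted t-test, and 3773 to 6797 with a replicate left out. For the difference between lines (794) they were 526, 450, 394, 1352, 1681, 322 and 425 after the median shift, without the filter, with the stricter filter, with separate mock arrays, with slide or replicate blocks and with replicates averaged, and 224 to 2211 with a replicate left out. In the counts with slide as a block that include A549 mock, arrays 1-1 and 1-2 entered as separate replicates, so 1 mock sample counts as 2. Arrays 1-1 and 1-2 used singly changed no cadherin call.

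With replicate number as a block, 1 cadherin probe was called in A549, 0 in HCC827 and 0 for the difference between lines. Samples sharing a number correlated in their deviations at 0.503, -0.423 and 0.503 in A549 and at 0.077 in HCC827, and A549 mock replicate 2 ran most like TRIM58-WT replicate 1, so the numbers do not pair the samples.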

Other observations

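The chromosomes that carry the cadherins differed in the median change of their tested genes in A549, each gene read at its brightest probe. With TRIM58-WT the median log2 difference was -0.49 over 379 genes of chromosome 8, with 7 called higher and 44 lower, and -0.48 over 490 genes of chromosome 5, with 14 higher and 38 lower. It was 0.13 over 521 genes of chromosome 16, 0.02 over 319 genes of chromosome 20 and -0.08 over 139 genes of chromosome 18, against 0.03 over all 11201 genes tested. Without the array labelled A549 mock 3 the medians of chromosomes 8 and 5 were -0.45 and -0.46. With TRIM58-WT replicates 2 and 3 averaged they were -0.51 and -0.49, with 3 higher and 7 lower on chromosome 8 and 3 higher and 11 lower on chromosome 5. In HCC827 the same chromosomes lay between -0.02 and 0.13. These are descriptions with no test. CDH17 lies on chromosome 8 and CDH6 on chromosome 5, and neither was above background in A549 TRIM58-WT.

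Over the 9 cadherin probes, the array labelled A549 mock 3 differed from A549 TRIM58-WT 1, 2 and 3 by standard deviations of 0.955, 1.35 and 1.37 log2 units, and from mock arrays 1-1, 1-2 and 2 by 1.69, 1.66 and 1.82. Over all probes tested in A549 the same array differed from the mock arrays by 0.73, 0.68 and 0.82 and from TRIM58-WT 1, 2 and 3 by 0.95, 0.77 and 0.77.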
